A study of Mus musculus with 3 samples.

Results

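The 10 genes Acta2, Actg2, Myh11, Cnn1, Tagln, Cald1, Lmod1, Smtn, Des and Myocd, which encode the contractile apparatus of smooth muscle and its master co-activator, were followed through the single cells of the mouse iridocorneal angle. They were chosen by name from 31053 genes in the matrices, all 10 were present, and each was read as unique molecular identifiers (UMIs, single captured transcripts) per cell in 14 labelled clusters, namely clusters 19, 20 and 21 and the reclustered stroma TM1 to TM11. The study compared the limbal and angle tissue of control mice, Angpt1 flox/flox, with that of Angpt1ΔNC mice, Angpt1 flox/flox;Wnt1Cre+, in which the Cre recombinase is driven by a Wnt1 transgene and removes the gene in the neural crest lineage. Both genotypes therefore carried the floxed alleles, both were on a mixed background crossed onto ICR to obtain albino animals, and both were 6 weeks old. There were 2 control libraries and 1 Angpt1ΔNC library, each described as a pool of 2 to 3 mice of both sexes. Almost no control cell held a UMI of the sex-specific transcript Xist, as given below. Every pool was dissociated with collagenase A in the presence of 10 µM Y27362, as the labels spell it. With 1 Angpt1ΔNC library, the spread of that genotype was not measured, and the tests below assume that it varied as the controls did.

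Smooth muscle shortens when myosin filaments pull on actin filaments. Acta2 and Actg2 encode the vascular and enteric smooth muscle actins, Myh11 the smooth muscle myosin heavy chain, and calponin (Cnn1), transgelin (Tagln) and caldesmon (Cald1) bind the thin filament. Leiomodin 1 (Lmod1) nucleates actin filaments, smoothelin (Smtn) is a filament-bound protein of fully contractile cells, desmin (Des) forms the intermediate filaments of muscle, and myocardin (Myocd) drives transcription of the set together with serum response factor. In the anterior eye such cells lie in the ciliary muscle, the iris muscles and the walls of vessels, and trabecular meshwork cells are known to carry smooth muscle actin, while pericytes, the mural cells of capillaries, carry less of the set.

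In the mouse annotation on GRCm38, Acta2 lies at chr19:34241090-34255590 (minus strand), Actg2 at chr6:83512905-83536265 (minus), Myh11 at chr16:14194535-14291372 (minus), Cnn1 at chr9:22099216-22109630 (plus) and Tagln at chr9:45929619-45936058 (minus). Cald1 spans chr6:34598500-34775473 (plus), Lmod1 chr1:135324807-135368065 (plus), Smtn chr11:3517523-3540612 (minus), Des chr1:75360329-75368579 (plus) and Myocd chr11:65176561-65269989 (minus). The sequences just upstream of Cnn1 and Des are shown because these were the 2 members whose difference between genotypes itself differed between clusters. They come from RefSeq on GRCm38.p6, run 5′ to 3′ on the plus strand, end before the first annotated exon, and carry in capitals each E-box match, CANNTG, the core read by basic helix-loop-helix factors. The Cnn1 stretch, chr9:22099003-22099215, is 213 bases long and holds 1 match, and the Des stretch, chr1:75360042-75360291, is 250 bases long and holds 2.
Cnn1: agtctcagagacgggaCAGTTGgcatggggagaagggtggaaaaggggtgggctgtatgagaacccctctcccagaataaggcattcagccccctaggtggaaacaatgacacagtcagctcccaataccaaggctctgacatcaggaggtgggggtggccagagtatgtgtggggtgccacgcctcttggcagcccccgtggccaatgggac
Des: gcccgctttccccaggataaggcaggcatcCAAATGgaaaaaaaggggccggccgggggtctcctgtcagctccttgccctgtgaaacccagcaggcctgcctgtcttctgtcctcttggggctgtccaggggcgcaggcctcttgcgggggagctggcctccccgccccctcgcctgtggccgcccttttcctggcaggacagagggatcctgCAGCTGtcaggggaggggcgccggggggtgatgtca
A match is a run of letters and not a site shown to be bound. Promoter windows were matched for 6 members (7 windows). CANNTG, which reads the same on both strands in its fixed letters, was present in 6 of these 7 windows and in 66.2% of all 32851 RefSeq windows. The CArG box, the motif of serum response factor, searched on both strands, was found in 0 of the 7 windows and in 1.47% of all windows. No window was used for Actg2, Myh11, Tagln or Myocd.

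The libraries held 9076, 10160 and 6772 kept cells in control 1, control 2 and Angpt1ΔNC, with 76981606, 80346829 and 66484181 UMIs and a median of 6329.5, 6393.5 and 7444 UMIs per cell. Between 13 and 25 cell barcodes were shared by each pair of libraries. Angpt1 itself, the targeted gene, had a mean of 1.4998, 1.27 and 0.00724 UMIs per 10,000 over the TM clusters. The study gives the first exon as the part removed, and since which end of the transcript the UMIs read is not given in the sources used here, this level does not by itself check the deletion. The libraries also differed in sex: Xist UMIs were present in 0.0331% and 0.0197% of the control cells and in 58.7% of the Angpt1ΔNC cells, although the labels describe pools of males and females. The share of Angpt1ΔNC cells with an Xist UMI was 94.4% in cluster 19, 51.8% in cluster 20, 30.4% in cluster 21 and 59.6% in the TM clusters. Sex and genotype cannot be told apart in cluster 19, and for the other clusters values among cells with a Y-linked UMI and no Xist UMI are given where they change a call.

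The study called cluster 19 smooth muscle, cluster 20 pericytes and cluster 21 vascular smooth muscle. Cluster 19 had 387, 499 and 54 cells in the libraries, in the order control 1, control 2 and Angpt1ΔNC used throughout, cluster 20 had 461, 512 and 222, and cluster 21 had 188, 174 and 69. Median depth per cell was alike within a cluster, at 5840, 6315 and 6306.5 UMIs in cluster 19 and at 4261.5, 4521.5 and 4593 UMIs in cluster 21. A level below is the mean over cells of UMIs per 10,000 UMIs of the cell. Notch3, a receptor of vascular mural cells, separated the 2 muscle clusters: its level was 0.0833, 0.0543 and 0 in cluster 19 and 2.22, 2.45 and 2.33 in cluster 21. Chrm3, the muscarinic receptor through which the ciliary muscle and iris sphincter contract, was at 0.209, 0.276 and 0.523 in cluster 19 and at 0, 0.00593 and 0.0200 in cluster 21. Cluster 20 carried the pericyte genes Abcc9 (2.33, 2.33 and 2.93) and Kcnj8 (9.38, 11.6 and 7.23), which form the potassium channel of these cells. These markers went with the given names, although cluster 19 also held Acta1, the skeletal muscle actin, at 1.25, 1.37 and 0.871. Other listed markers did not. Casq2, listed for vascular muscle, was at 0.625, 0.551 and 0.727 in cluster 19 and at 0.139, 0.111 and 0.133 in cluster 21. Pln, of the same list, was at 0.758, 0.693 and 0.655 against 0.637, 0.592 and 0.0320. Chrm2, listed for ciliary muscle, was at 0.0103, 0.00523 and 0 in cluster 19. Since the clusters were built from the expression of these cells, levels between clusters are descriptions and carry no test.

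A pair of marker lists moved with genotype inside the muscle clusters. Their part in the results of cluster 19, and that of Rgs5 in cluster 21, was not tested, and values of cluster 21 without the cells holding Kcnj8, Abcc9 or Vtn are given with its fit. In cluster 19 the 5 fibroblast genes summed to 5.08, 6.37 and 23.2 UMIs per 10,000, of which Dcn, a matrix proteoglycan, made up 4.31, 5.34 and 21.7, while the 10 pericyte genes summed to 7.83, 7.90 and 2.56 and Abcc9 and Higd1b were at or near 0. In cluster 21 the pericyte list summed to 40.65, 34.999 and 77.56, of which Rgs5 made up 29.8, 24.1 and 64.1, and the fibroblast list stayed at 0.651, 1.13 and 0.698. Kcnj8, a defining pericyte gene, was at 1.13, 0.750 and 0.847 in cluster 21, so it did not follow Rgs5 there.

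**Figure D1:**
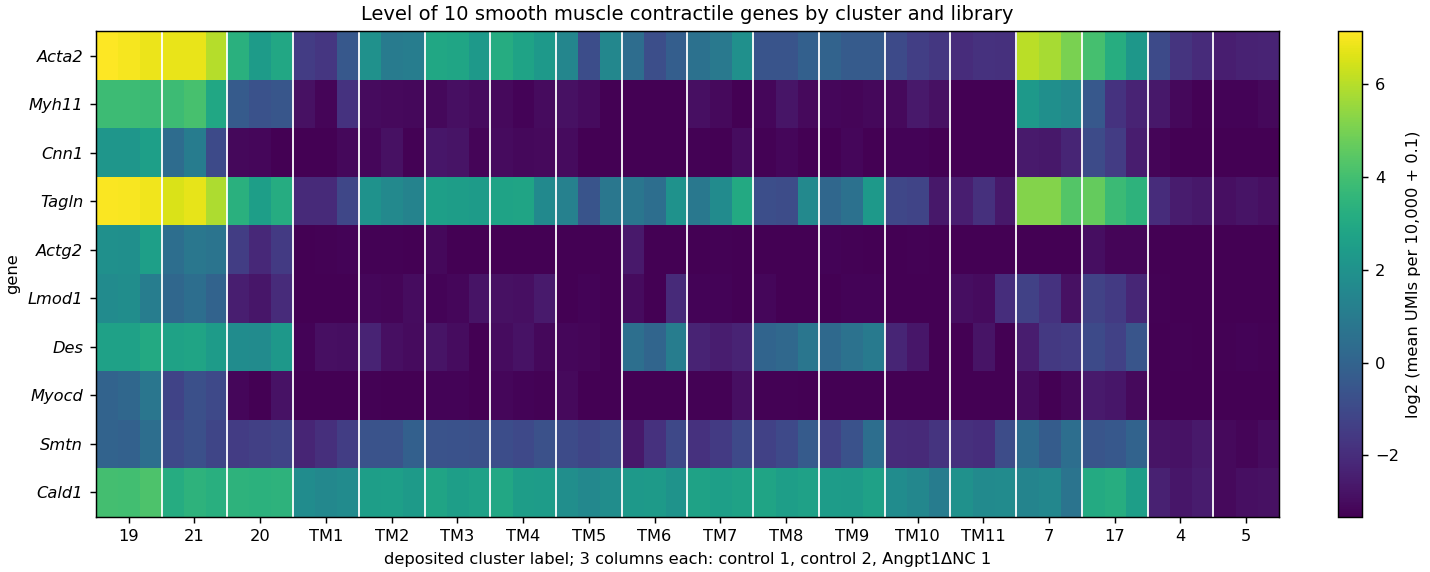
Mean level of each of the 10 genes (colour, log2 of UMIs per 10,000 plus 0.1) in the 14 clusters compared and in clusters 7, 17, 4 and 5, with 3 columns a cluster for control 1, control 2 and Angpt1ΔNC. Clusters 19 and 21 stand out for nearly every gene, cluster 20 keeps mainly Cald1 and Des, and in the controls Acta2 and Tagln reach their highest TM levels in TM3 and TM4.

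The full set was expressed in clusters 19 and 21, and 8 of the 10 genes had their highest control level among the 14 clusters in cluster 19. Acta2 had a level of 141, 127 and 113 in cluster 19 and of 112, 112 and 62.8 in cluster 21. Controls of the 2 clusters did not overlap for Acta2, whereas cluster 20 was far below both at 10.0, 5.22 and 7.65. Tagln followed the same order, with 137, 132 and 120 in cluster 19, 93.3, 107 and 57.4 in cluster 21 and 9.97, 5.78 and 8.81 in cluster 20. Myh11 did not: cluster 19 stood at 14.5, 14.4 and 13.8 and cluster 21 at 14.3, 16.8 and 7.44, and the control values of the 2 clusters overlapped. In the pericytes of cluster 20 Myh11 was at 0.709, 0.529 and 0.601.

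Cnn1, Actg2, Lmod1 and Myocd set cluster 19 apart from the vascular cells. Calponin (Cnn1) was at 4.47, 4.46 and 5.97 in cluster 19 and at 1.20, 2.03 and 0.404 in cluster 21. Enteric actin (Actg2) was at 3.73, 3.57 and 5.97 in cluster 19 against 1.26, 1.68 and 1.53 in cluster 21. Leiomodin (Lmod1) was at 3.20, 3.37 and 2.05 against 1.03, 1.29 and 0.894. For each of these, every library of cluster 19 lay above every library of cluster 21. The co-activator Myocd had the same arrangement at low counts, with 0.899, 1.03 and 1.61 in cluster 19 and 0.332, 0.496 and 0.399 in cluster 21. The coding sequences of the actin genes are close to each other, so UMIs of Actg2 and Acta2 may in part be misassigned between them, which was not measured.

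Smtn, Cald1 and Des behaved differently. Smtn was at 0.913, 0.853 and 1.28 in cluster 19 and at 0.389, 0.484 and 0.358 in cluster 21. In the controls it was also higher in TM2 (0.539 and 0.539) and TM3 (0.535 and 0.515) than in cluster 21, so among these clusters it did not mark muscle alone. Caldesmon (Cald1), which also has a non-muscle form, was at 16.3, 15.7 and 18.5 in cluster 19, at 8.71, 10.7 and 9.62 in cluster 21 and at 10.9, 10.4 and 10.8 in cluster 20, where the last 2 clusters overlapped. Desmin was about equal in the 2 muscle clusters of the controls, at 6.29 and 6.24 in cluster 19 and 6.45 and 6.73 in cluster 21, and parted in the Angpt1ΔNC library at 8.20 and 5.28. Pericytes carried Des at 3.33, 3.21 and 4.74. Cluster 21 was first for Myh11 and Des when cells were averaged, and summing the counts placed Des in cluster 19 instead.

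**Figure D2:**
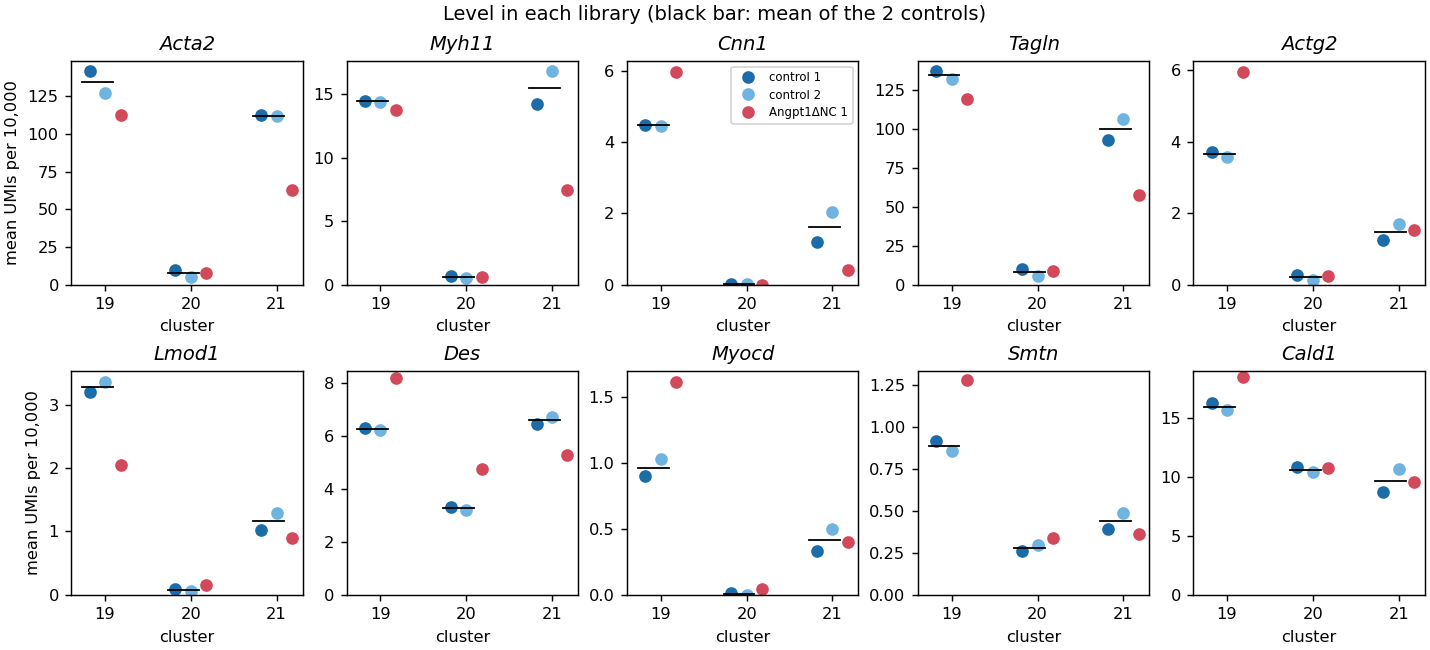
Level of each gene (mean UMIs per 10,000, linear axes from 0) in clusters 19, 20 and 21 for each library, with control 1 and 2 in blues, Angpt1ΔNC in red and the mean of the 2 controls as a bar. In cluster 21 the red point lies below both controls for Acta2, Myh11, Cnn1 and Tagln, among others. In cluster 19 it lies above both for Cnn1, Actg2 and Des, among others.

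Most single cells of cluster 19 held UMIs of at least 6 of the 10 genes. Acta2 was detected in 387 of 387, 499 of 499 and 54 of 54 cells of cluster 19, and in 99.5%, 100% and 98.6% of cluster 21. Cells with UMIs of at least 6 of the 10 genes made up 87.6%, 92.0% and 90.7% of cluster 19, 59.6%, 73.6% and 58.0% of cluster 21 and 7.81%, 2.93% and 4.95% of cluster 20. Cluster 19 was the deeper in median UMIs per cell, so these shares are not matched for depth. As a measure of free RNA, cells of the limbal epithelium (cluster 4), which should lack the gene, had an Acta2 UMI in 24.6%, 16.96% and 17.16% of cells at median depths of 14480.5, 12359 and 14092 UMIs, and their level was 0.408, 0.194 and 0.144.

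The genes fell into 2 sets by how they varied among the cells of cluster 19. Acta2, Tagln, Myh11, Cnn1, Actg2 and Des rose and fell together: over the 15 pairs of these 6 genes the Pearson correlation of levels across cells ranged from 0.356 to 0.705 in control 1, from 0.318 to 0.712 in control 2 and from 0.250 to 0.708 in Angpt1ΔNC. The other 30 pairs, all of which involve Lmod1, Myocd, Smtn or Cald1, had medians of 0.0554, 0.0361 and 0.0840. Actg2 and Cnn1, for example, correlated at 0.61, 0.46 and 0.62, and Actg2 and Lmod1 at 0.0029, 0.030 and 0.15. The cells of a library share depth and free RNA, and the counts of Myocd and Smtn were low, so the correlations are a description without a test. Split by desmin, 253, 344 and 27 cells with a Des UMI had Actg2 at 5.04, 4.51 and 8.61, and the 134, 155 and 27 cells without one had 1.24, 1.46 and 3.32. Lmod1 hardly moved in the same split, at 3.18, 3.38 and 1.90 against 3.24, 3.32 and 2.19, and the cells with a Des UMI were somewhat deeper (median 6167, 6499 and 6495 against 5245, 5706 and 5486 UMIs). In cluster 21 the 15 pairs ranged from 0.124 to 0.660 in control 1, from 0.0315 to 0.743 in control 2 and from -0.246 to 0.704 in Angpt1ΔNC. Acta2 and Des gave the lowest of these values in Angpt1ΔNC. The 6 genes had median correlations of 0.304, 0.321 and 0.400 in cluster 21, against 0.486, 0.457 and 0.488 in cluster 19. The 6 were grouped by their correlations in cluster 19, so this difference is no test.

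**Figure D3:**
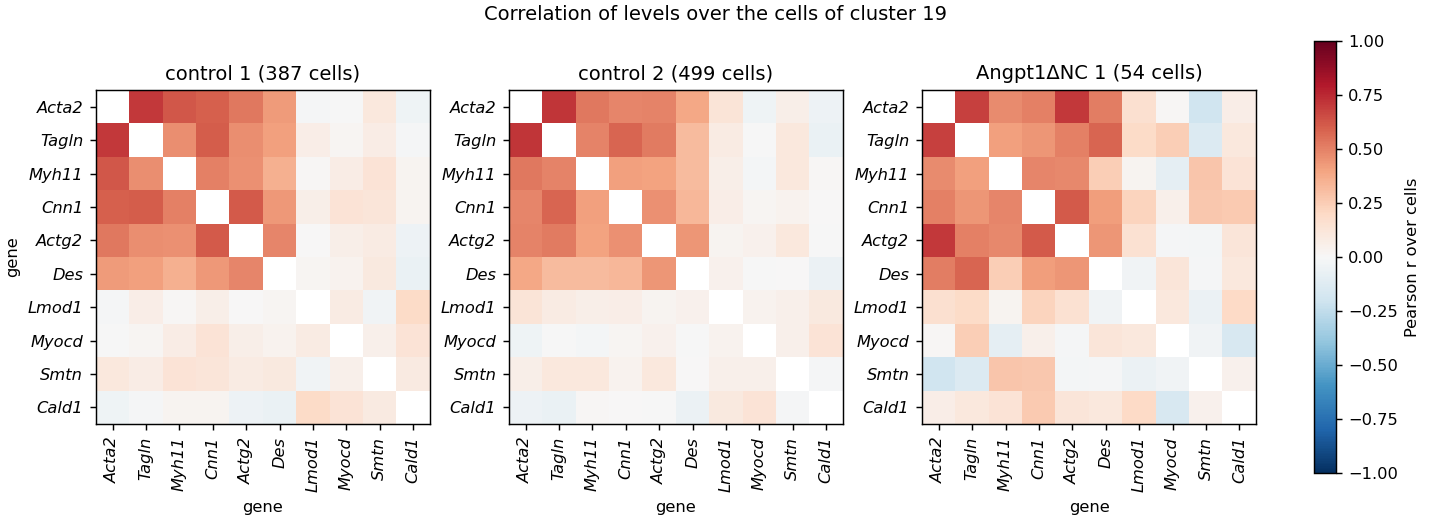
Pearson correlation of levels over the cells of cluster 19 for each pair of genes (colour from -1 to 1), 1 panel for each library. The first 6 genes form a red block with r from 0.250 to 0.712, and the pairs with Lmod1, Myocd, Smtn or Cald1 are pale.

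Cluster 20 was not uniformly low. Acta2 was detected in 241 of 461, 214 of 512 and 109 of 222 cells, and its median level was 2.00, 0 and 0 while the 90th percentile reached 30.7, 13.6 and 21.3. A level of at least 20 was reached by 14.5%, 6.64% and 11.7% of its cells, against 96.3%, 96.6% and 88.4% in cluster 21. The calponin and myocardin counts in cluster 20 amounted to 6, 4 and 0 UMIs and to 4, 0 and 6 UMIs. Des was detected in 60.7% of cluster 20 cells in control 1 (95% Clopper-Pearson interval 56.1% to 65.2%), 65.8% in control 2 (61.5% to 69.9%) and 75.2% in Angpt1ΔNC (69.0% to 80.8%). Des UMIs in limbal epithelium were present in at most 0.394% of cells, so desmin in the pericytes was above the free RNA measured there. These intervals cover counting error only.

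In the TM clusters the set was incomplete. Over all 11 clusters Acta2 summed to 5399, 5822 and 3740 UMIs and Tagln to 4668, 6756 and 4966, whereas Myh11 amounted to 43, 59 and 44 UMIs, Cnn1 to 23, 37 and 13, Actg2 to 7, 6 and 1 and Myocd to 8, 7 and 3. The muscle actin was highest in TM4, which the study assigned to trabecular meshwork (8.95, 6.53 and 4.94), and in TM3 (7.41, 7.04 and 4.86), followed by the corneal endothelium of TM2 (3.79, 1.95 and 2.04). TM3, TM4 and cluster 20 overlapped in their control values. The ratio of Acta2 to Myh11 UMIs was 9.73, 8.68 and 8.38 in cluster 19 and 8.12, 6.75 and 8.24 in cluster 21, whereas TM3 held 3, 7 and 2 Myh11 UMIs and TM4 held 4, 2 and 6, too few for a firm ratio. TM3 and TM4 thus had Acta2 with few UMIs of myosin heavy chain, at levels above those of the limbal epithelium.

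Des marked another subset of the stroma. It was at 1.31, 0.972 and 2.03 in TM6, 0.942, 1.05 and 1.61 in TM8 and 1.08, 1.42 and 1.83 in TM9, clusters that the study placed in the uveal stroma, and at no more than 0.111 in any library of the other 8 clusters. Acta2 in TM6, TM8 and TM9 was between 0.465 and 1.25. Cald1 was present throughout, from 1.99 to 7.58 over the TM clusters and libraries. The 3 TM clusters with Des did not overlap with the others.

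**Figure D4:**
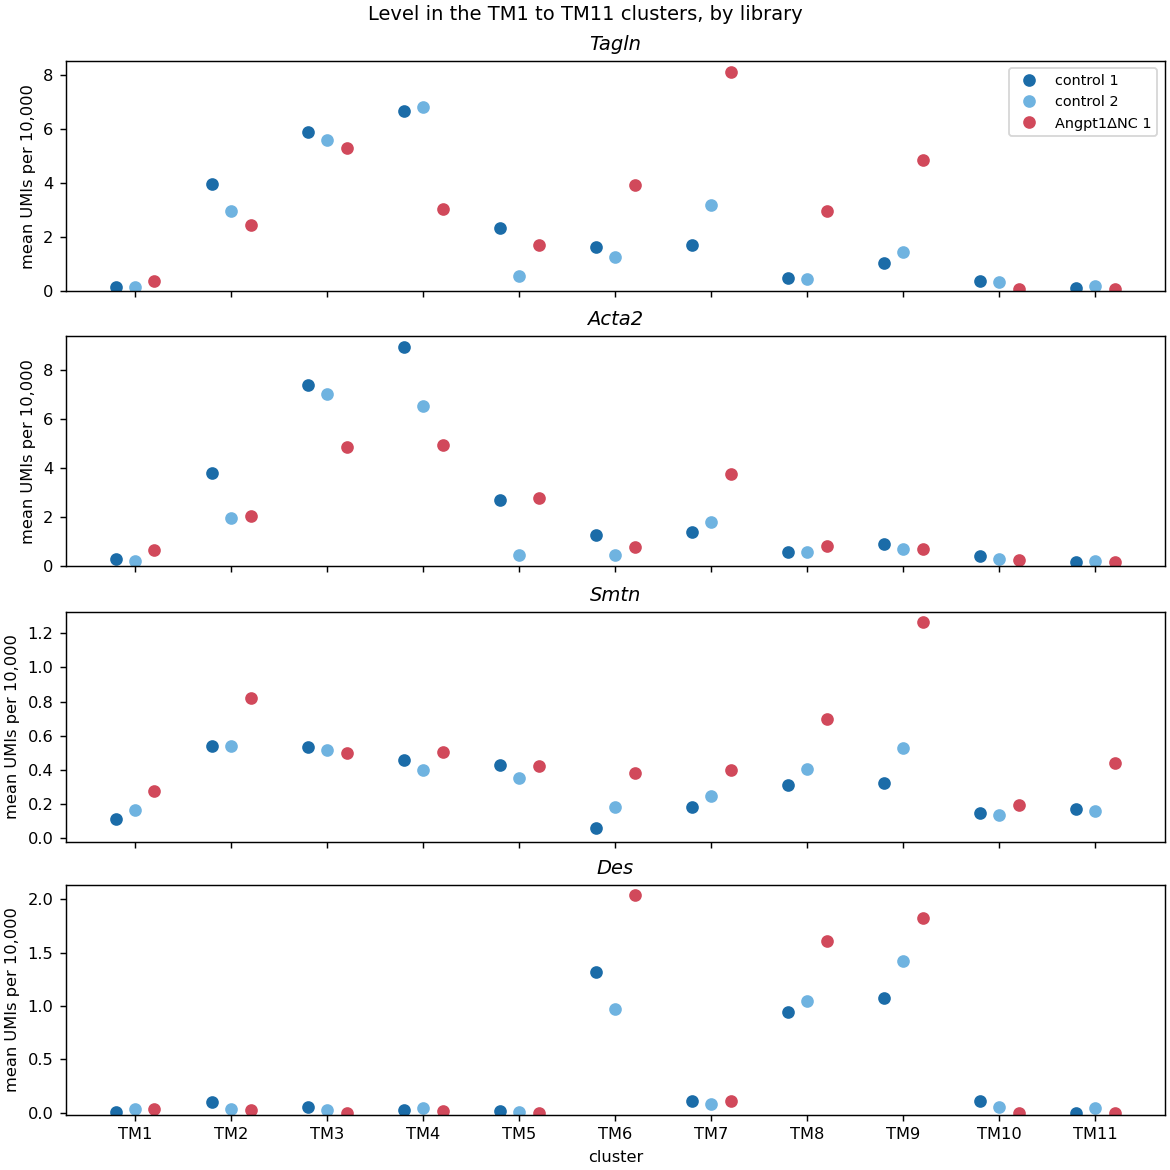
Levels (mean UMIs per 10,000) in TM1 to TM11 in each library for Tagln, Acta2, Smtn and Des, with control 1 and 2 in blues and Angpt1ΔNC in red. In the controls Acta2 and Tagln were highest in TM3 and TM4, whereas in Angpt1ΔNC Tagln was highest in TM7 (8.11). Des was highest in TM6, TM8 and TM9, and Tagln in TM7, TM8 and TM9 was higher in Angpt1ΔNC than in both controls.

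Outside the 14 clusters, smooth muscle genes were also found in cluster 7, which the study named ciliary epithelia. Acta2 was at 66.6, 54.9 and 32.5 there, Tagln at 37.0, 36.5 and 20.5, Myh11 at 4.88, 3.60 and 2.97 and Smtn at 1.18, 0.718 and 1.26. A level of Acta2 of at least 20 was reached by 171 of 316, 55 of 107 and 43 of 139 cells. In those cells, chosen on Acta2 itself, Acta2 averaged 121, 104 and 98.7 and Myh11 8.86, 6.49 and 9.22. They also held Pmel, a melanosome gene, at 111, 99.8 and 75.8, and Des at 0.0183, 0 and 0, so this population combined the contractile genes with pigment genes and without desmin. Stromal cluster 17 was the only other label above 3 for Acta2 (16.6, 8.96 and 4.60), with Myh11 at 0.638, 0.191 and 0.107.

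The difference between the Angpt1ΔNC library and the controls was tested on UMIs summed per library and cluster. The test was edgeR's quasi-likelihood test, with Benjamini-Hochberg adjustment over all genes tested. Sex differed along with genotype, so these fits do not isolate the deletion. Replicates were pools. With so few libraries, the p-values rest largely on a spread shared across genes, and in cluster 21 wholly so. They therefore say little about a gene's own spread between pools. Fold changes are log2 values of Angpt1ΔNC over control, and CPM values are the summed UMIs scaled to a common total. In cluster 21, 4 of the 10 contractile genes fell at an adjusted p under 0.05, against 3.73% of all 6870 genes tested that were lower and 8.21% called in either direction. The median over the 10 genes was -0.43, beside -0.04 over all genes.

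Acta2 in cluster 21 went from 12009 and 11925 CPM in the controls to 6612 in Angpt1ΔNC, a change of -0.77 (SE 0.13, adjusted p = 8.27e-07). Myh11 went from 1478 and 1767 to 802 CPM (-0.93, SE 0.20, adjusted p = 0.000193). The actin-myosin pair thus fell together, and the Angpt1ΔNC value lay below both controls for each. Tagln went from 9981 and 11164 to 6144 CPM (-0.70, SE 0.14, adjusted p = 1.93e-05). Cnn1 changed most, from 110 and 171 UMIs to 20, which is 134, 216 and 57.1 CPM (-1.53, SE 0.33, adjusted p = 0.000141). Its share of positive cells was 35.6% (28.8% to 42.9%), 48.3% (40.6% to 56.0%) and 15.9% (8.24% to 26.7%). The distribution of Acta2 shifted as a whole, with medians over cells of 106, 113 and 52.4 and upper quartiles of 150.2, 149 and 92.7.

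The other 6 genes did not pass in cluster 21. Des was at 681, 681 and 514 CPM (-0.32, SE 0.23, adjusted p = 0.480), Lmod1 at 108, 144 and 82.8, Smtn at 41.3, 50.6 and 34.3, Actg2 at 147, 194 and 211, Cald1 at 909, 1097 and 1008 and Myocd at 32.8, 50.6 and 40.0. The Angpt1ΔNC value was below both controls for 7 of the 10 genes, where 41.3% of all genes tested were. Since 33.3% of the Angpt1ΔNC cells of cluster 21 held a UMI of Kcnj8, Abcc9 or Vtn, against 21.3% and 20.7%, the cells holding one were left out, and the 4 genes were again lower (Acta2 -0.85, Myh11 -1.05, Tagln -0.83 and Cnn1 -3.33). Among cells with a Y-linked UMI and no Xist UMI, 126, 114 and 37 in number, Acta2 (-0.84), Tagln (-0.71) and Cnn1 (-1.69) were again called, and Myh11 was at -0.66 with an edgeR adjusted p of 0.0931. With equal numbers of cells per library Tagln was at -0.69 with an adjusted p of 0.0567, and DESeq2 gave Cnn1 an adjusted p of 0.201.

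In the smooth muscle of cluster 19, 1 of 10 genes was called, against 0.966% of 10349 genes tested. Actg2, the enteric actin, rose from 420 and 394 to 696 CPM (0.81, SE 0.14, adjusted p = 0.0207). This rested on 54 cells, of which 94.4% held Xist, and with equal numbers of cells per library the change was 0.70 with an adjusted p of 0.110. None of the others passed: Acta2 was at 15083, 13183 and 12094 CPM (-0.18, SE 0.13), Myh11 at 1551, 1518 and 1443 (-0.05, SE 0.13) and Tagln at 14571, 13765 and 12839 (-0.10, SE 0.12). Values above both controls without a call were those of Cnn1 (494, 471 and 636 CPM), Des (699, 674 and 962), Myocd (87.4, 105 and 155), Cald1 (1621, 1602 and 1913) and Smtn (94.2, 89.2 and 106). Lmod1 was below both (324, 346 and 223), as were Acta2, Myh11 and Tagln. Of all genes tested in cluster 19, 40.6% lay above both controls and 46.1% below both. At an unadjusted p under 0.05 there were 6 of the 10 genes, where 14.0% of all genes were.

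In the pericytes of cluster 20, 8 genes had enough counts to test and 1 was called, against 7.67% of 9105 genes. Des rose from 332 and 326 to 479 CPM (0.58, SE 0.16, adjusted p = 0.0302), and without the deepest 5% of cells it was again 0.58 with an adjusted p of 0.0506. DESeq2 gave 0.57 with an adjusted p of 0.404. Acta2 was at 1329, 698 and 1011 CPM and Tagln at 1315, 795 and 1093, with the Angpt1ΔNC library between the controls.

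**Figure D5:**
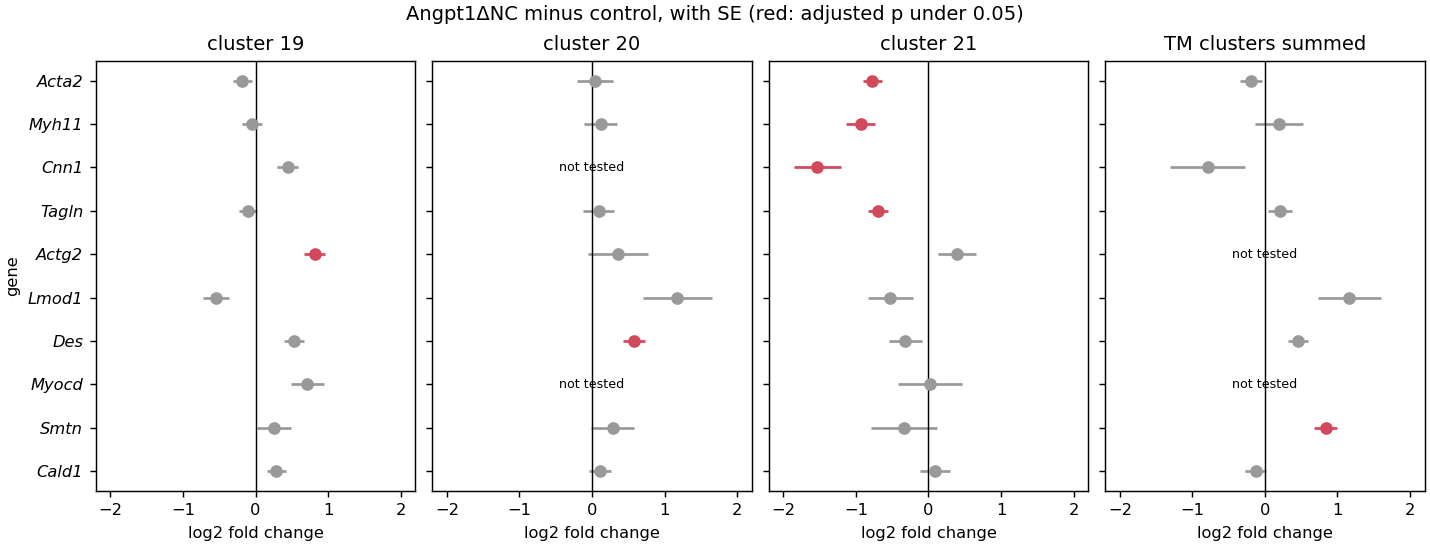
Log2 fold change of Angpt1ΔNC over control for each gene by cluster class, with bars of 1 standard error of the edgeR fit, red for an adjusted p under 0.05 and grey otherwise. The red points are Acta2, Myh11, Cnn1 and Tagln below 0 in cluster 21, Actg2 above 0 in cluster 19, Des above 0 in cluster 20 and Smtn above 0 in the summed TM clusters.

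Whether the difference between genotypes itself differed between clusters was tested by the interaction of cluster and genotype. The fit ran over the 9 sums, with the library as a term. Cnn1 differed between clusters 19 and 21 by 1.93 (SE 0.40, adjusted p = 0.0204) and Des by 0.82 (SE 0.19, adjusted p = 0.0444), against 0.958% of 7935 genes called. Between clusters 20 and 21, Des differed by 0.90 (SE 0.19, adjusted p = 0.0145), where 1.79% of genes were called. The log2 ratio of Angpt1ΔNC to control was thus higher for both genes in cluster 19 than in cluster 21, and for Des also in cluster 20. The share of Angpt1ΔNC cells with an Xist UMI differed between these clusters too (94.4%, 51.8% and 30.4% in clusters 19, 20 and 21), so genotype and sex cannot be told apart in these differences. For Acta2 the difference between clusters 19 and 21 was 0.57 (SE 0.24, adjusted p = 0.374) and for Myh11 0.86 (SE 0.21, adjusted p = 0.0626), so their fall was not shown to be particular to cluster 21. None of the 10 genes was called between clusters 19 and 20, where 1.25% of genes were and where Lmod1 had an unadjusted p of 0.00219 (adjusted p = 0.114). With the library left out of the fit, neither Cnn1 (1.95, adjusted p = 0.0911) nor Des (0.82, adjusted p = 0.152 between clusters 19 and 21, and 0.90, adjusted p = 0.0817 between clusters 20 and 21) passed.

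Over the summed TM clusters 1 of 8 genes tested was called, against 8.97% of 13942 genes. Smtn rose from 31.8 and 37.2 to 61.7 CPM (0.84, SE 0.16, adjusted p = 0.0150). With equal numbers of cells per library its change was 0.90 with an adjusted p of 0.0598. Acta2 was at 295, 255 and 240 CPM and Tagln at 255, 296 and 319 (0.21), which did not pass. Among cells with a Y-linked UMI and no Xist UMI, where 13.1% of genes were called, Des (0.58, edgeR adjusted p = 0.0239) was called beside Smtn (0.51, adjusted p = 0.0461), and Tagln, again not called, turned to -0.47. Such sums hide clusters that moved in opposite directions, and the mix of TM clusters differed between the libraries, TM9 for example having 204, 298 and 327 cells and TM7 having 667, 739 and 174.

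Each TM cluster was therefore also fitted alone, a step added after the sums had been seen, which gave 55 tests of members and 13 calls. Their p-values also rest largely on a spread shared across genes, and so say little about a gene's own spread between pools. Of all genes tested, between 0% (TM6) and 15.1% (TM9) were called in these fits. Tagln was called in 6 of the 11 clusters, higher in 4 and lower in 2, and had too few UMIs to be tested in TM11 (2, 8 and 2). In TM8 it rose from 45.7 and 44.9 to 331 CPM (3.01, SE 0.20, adjusted p = 6.57e-06), where 3.58% of genes were called. In TM9 it rose from 111 and 142 to 496 CPM (2.07, SE 0.22, adjusted p = 4.64e-19), where 15.1% were called. The share of cells with a Tagln UMI went along, at 9.64%, 11.9% and 42.6% in TM8 and 24.0%, 27.9% and 69.1% in TM9. In TM7 the level of 173 and 339 CPM rose to 824 (1.68, adjusted p = 0.0226, background 5.07%), and in TM1 15.2 and 12.9 CPM rose to 35.5 (1.26, adjusted p = 0.0254, background 4.79%).

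Tagln went the other way in the meshwork cells of TM4 and the Cd34 stroma of TM10. It fell in TM4 from 646 and 730 to 315 CPM (-1.09, SE 0.21, adjusted p = 0.00384, where 6.52% of genes were called). It fell in TM10 from 44 and 56 UMIs to 11 (-2.53, SE 0.42, adjusted p = 2.83e-07, where 11.6% were called). Des in TM10 was also called lower, on 16, 6 and 0 UMIs. Transgelin thus rose in the uveal stroma of TM7 to TM9 and fell in TM4, and Acta2 in TM4 was at 884, 732 and 497 CPM (-0.66, adjusted p = 0.0599), which did not pass. No interaction between TM clusters was tested, nor was the part of the sex difference between the libraries in these single-cluster values.

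Acta2 was called in 3 TM clusters. It rose in TM1 from 28.86 and 19.04 to 61.5 CPM (1.28, adjusted p = 0.0033) and in TM7 from 144 and 192 to 379 CPM (1.18, adjusted p = 0.0177). Its call in TM5 (1.02, adjusted p = 0.00545, where 2.48% of genes were called) stood on 265, 44.2 and 286 CPM, so the Angpt1ΔNC library resembled control 1, and without control 2 the log2 ratio was 0.11. Smtn rose in TM9 from 31.23 and 50.005 to 128 CPM (1.72, adjusted p = 2.57e-11) and Des in TM8 from 95.6 and 103 to 167 CPM (0.89, adjusted p = 0.0386). Myh11 in TM1 was called on 9, 2 and 19 UMIs (2.43, adjusted p = 0.0210). In TM2, TM3, TM6 and TM11 none of the members tested was called, with 1.39%, 7.03%, 0% and 2.16% of genes called there. At an unadjusted p under 0.05 were Tagln and Smtn in TM2, Acta2 in TM3, Tagln and Des in TM6 and Smtn in TM11. Only Smtn and Cald1 had enough counts to be tested in TM11.

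A further 57 genes of contraction, listed by role, were read in the same fits. The part of the sex difference between the libraries in their values was not tested. In cluster 21, 11 of the 45 tested fell and 1 rose, where 3.73% of all genes were lower and 4.48% higher. The fall included Myl9, the regulatory light chain that is phosphorylated to start contraction (6489 and 6109 to 3418 CPM, -0.80, adjusted p = 1.33e-05), and 3 of the 9 genes that set this phosphorylation, namely the myosin phosphatase subunit Ppp1r12a (-0.77), its inhibitor Ppp1r14a (-0.92) and the cyclic GMP kinase Prkg1 (-0.93). The intermediate filament genes Vim (-0.90) and Synm (-1.15), the calcium-activated potassium channel Kcnma1 (-1.96) and the cytoplasmic actins Actb (-0.61) and Actg1 (-1.33) fell too. Klf4, a factor known to repress the contractile program, also fell in cluster 21 (-0.62, adjusted p = 0.0464) and in cluster 19 (-1.07, adjusted p = 0.0202), where it was the only call among 52 genes tested, where 0.966% of all genes were called. Pln, the brake on the sarcoplasmic calcium pump, was at 65.7, 69.6 and 2.86 CPM in cluster 21. Mylk, the kinase of the light chain, had levels of 14.0, 14.7 and 13.5 in cluster 19, 4.68, 6.32 and 4.05 in cluster 21 and 1.09, 1.11 and 1.38 in cluster 20, and was not called.

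The endothelin receptor Ednrb rose in both vascular clusters, from 59.6 and 25.3 to 134 CPM in cluster 21 (1.74, adjusted p = 5.07e-06) and from 154 and 113 to 444 CPM in cluster 20 (1.78, adjusted p = 5.02e-06). In cluster 20 the tropomyosin Tpm2 (0.80), the cytoskeletal protein Csrp1 (0.58) and the receptors Adra1b (1.40) and Ptgfr (2.31) rose, Actg1 fell (-0.58), and 40 of the 46 tested did not pass, where 7.67% of all genes were called. Over the TM clusters 2 of 47 rose and 6 fell, where 3.46% of all genes were higher and 5.52% lower, so the number that rose was near the background. The nitric oxide receptor subunits Gucy1a1 (33.4 and 25.3 to 5.45 CPM, -2.42) and Gucy1b1 (-1.26), the cyclic GMP phosphodiesterase Pde5a (-1.29) and the endothelin receptor Ednra (-1.03) fell, with Cnn3 (-0.66) and Atp2a2 (-0.64), while Actn1 (0.67) and Adra1b (0.67) rose. Of the remaining abundant genes, Myl6 was at 49.7, 53.4 and 62.0 per 10,000 in cluster 19 and 51.9, 60.8 and 50.1 in cluster 21, Rhoa at 7.43, 7.35 and 7.97 and at 5.75, 5.69 and 5.78, and neither was called. Itpr1 and Mef2c were also uncalled in all 4 classes.

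Across the 35 labels the genes most like the mean pattern of the 10, among 12453 genes and by Pearson correlation of log2 control levels, were Jph2 (r = 0.927), Mrvi1 (0.915), Synpo2 (0.905), Ppp1r12b (0.902), Slc4a3 (0.894), Adcy5 (0.892), Fbxl22 (0.891), Rasl12 (0.889), Hrc (0.882) and Myl9 (0.881). The labels share libraries and depth, so this is a description over 35 points. Between members, Cnn1 and Myocd were the closest pair (0.981) and Actg2 and Smtn were far apart (0.328). Jph2, a junctional membrane protein, was at a control mean of 1.38 in cluster 19, 0.104 in cluster 20 and 0.729 in cluster 21.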

How the data were processed

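The 3 libraries were captured on the 10x Chromium droplet system after dissociation of limbal and angle tissue. The deposited matrices hold UMI counts per gene and cell, which the authors made with Cell Ranger (2.1.1 in the submitters' processing notes) on mm10. The deposited cluster labels and an integrated table of 3467 genes were made by the authors with Seurat 3.1.3, after filters of 200 genes, 1000 UMIs and 10% mitochondrial reads. Labels were used as given, with no further doublet removal, since the kept cells are those the authors labelled. The integrated table was used only to see that 8 of the 10 members are in it.

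Counts were divided by each cell's total and scaled to 10,000 (levels) or summed per library and cluster, with Python 3.11.15, numpy 2.4.6, pandas 2.3.3 and scipy 1.17.1. Sums were tested with edgeR 4.0.16 (R 4.3.3, TMM, filterByExpr, quasi-likelihood, adjusted p threshold 0.05). The fit was also run on simulated data in which every gene had the same spread in both genotypes. That run does not bear on a gene's own spread or on that of the lone Angpt1ΔNC library. The library was the replicate. Alternatives were RLE factors, no filter, DESeq2 1.42.0, equal cell numbers, no deepest cells, each control left out, and, added later, Y-typed cells, no cells with pericyte UMIs and single TM clusters. Every member was named. Of the contractile list, genes called or among the 2 highest of their role were named. The members and lists were chosen with earlier results of these data known.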

Additional observations from a re-analysis of the deposited data

Results flagged for a closer look

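A few differences between clusters under the same contrast were past the threshold of the interaction test, and are repeated here with their size. The log2 ratio of Angpt1ΔNC to control was higher in cluster 19 than in cluster 21 by 1.93 for Cnn1 and by 0.82 for Des. Fitted by cluster, Cnn1 was at 0.44 in cluster 19, not called, and at -1.53 in cluster 21. Des was at 0.53 and -0.32, neither called. Between clusters 20 and 21 the change of Des differed by 0.90. In the controls, Cnn1 had 110 and 171 UMIs in cluster 21 and 20 in the Angpt1ΔNC library, and this low count limits its precision. Leaving out either control gave 1.54 and 2.32 for Cnn1, 0.81 and 0.89 for Des between clusters 19 and 21, and 0.93 and 0.94 for Des between clusters 20 and 21. These are differences of the fitted log2 fold changes of the clusters, with no test.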

How the results depend on the processing

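No paired analysis was possible because the libraries were separate pools and no pairing between the groups was given. Of 356 alternative fold changes of members, 302 kept their side of the threshold or stayed within a standard error, 29 moved, 7 lost a call, 3 gained one and 15 changed sign in a refitted test. Those that changed sign were uncalled genes: in cluster 20, Acta2 with equal cell numbers (-0.042) and, in Y-typed cells, Acta2 (-0.46), Myh11 (-0.12), Tagln (-0.37), Actg2 (-0.26) and Cald1 (-0.27), in cluster 21, Actg2 without pericyte UMIs (-0.14) and in Y-typed cells (-0.11), Cald1 without pericyte UMIs (-0.058) and Myocd without a filter (-0.031), by DESeq2 (-0.00086), with equal cells (-0.14) and in Y-typed cells (-0.23), and in the TM sums Myh11 with equal cells (-0.057) and Tagln in Y-typed cells (-0.47). Values with a control left out or averaged over cells were counted as a sign change only for called genes. Without control 2, Acta2 (-0.35), Tagln (-0.23), Actg2 (-0.18) and Myh11 (-0.068) of cluster 20 also changed sign. So did Myocd (-0.34) and Cald1 (-0.12) of cluster 21 without control 1. Averaging over cells turned Myh11 in cluster 20 (-0.043), and Myocd (-0.053) and Cald1 (-0.012) in cluster 21. Counts of called members in cluster 21 stayed at 3 or 4. Without a filter on low counts, 2 members were called in cluster 19 (Actg2 and Des), 2 in the TM sums (Des and Smtn), and the interaction calls were 4 (clusters 19 against 21, where Des had an adjusted p of 0.0501), 4 (20 against 21) and 1 (19 against 20, Lmod1). With equal cell numbers, 0 were called in cluster 19 and 0 in the TM sums, while Y-typed cells gave 2 in the TM sums. In cluster 20, DESeq2 and the fit without the deepest cells gave 0. With no library term, 0 members were called in either contrast against cluster 21. The cause of these changes was not tested. In the TM clusters taken alone, leaving out control 1 gave 2.70 for Acta2 in TM5 and 3.88 for Myh11 in TM1, and leaving out control 2 gave 0.11 and 1.90. The number of members with their highest level in cluster 19 ranged from 8 to 9 when a control was left out, and 10 in the Angpt1ΔNC library. After thinning to 1000 UMIs, 4 members rather than 8 were detected in over 50% of control cells of cluster 19, so shares of positive cells depend on depth.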
